A study of Homo sapiens with 6 samples.

Results

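The 8 genes described here belong to the interferon system: the transcription factors IRF3, STAT2 and IRF9, and BST2, OAS3, ISG15, IFITM3 and ADAR, which encode antiviral or RNA-modifying proteins. They were chosen by gene symbol, all 8 had a row among the 14574 genes of the deposited table, and all 8 passed the filter on low values. The cells were HCT116, an established human colorectal carcinoma line, either parental or LARP1 KO. LARP1 binds the capped 5′ end of mRNAs that begin with a terminal oligopyrimidine (TOP) tract, most of which encode ribosomal proteins and translation factors. Both genotypes, and so every library, came from cells kept in 250 nM of the mTOR kinase inhibitor TAK228 over 48 h, with fresh drug given at 24 h, and no untreated cells were part of the comparison. RNA was taken from pooled non-polysomal sucrose gradient fractions, from the 40S to the 80S peak. The comparison asks which transcripts outside polysomes depend on LARP1 while mTOR is inhibited. Each genotype gave 2 RNA-seq libraries, and the 2 parental RNA samples were also made into libraries of capped 5′ ends, here called TSS libraries for transcription start site. The labels do not say whether the knockout is 1 clone, so a difference between clones and an effect of the knockout cannot be told apart. Replicates are described as biological, but no separate cultures are named, so p-values measure only the spread between these samples, which may be technical.

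Cells that sense foreign nucleic acid activate IRF3, which switches on interferon genes. Secreted type I interferon binds its receptor and activates kinases that phosphorylate STAT2, which joins IRF9 in a complex called ISGF3. That complex binds the interferon-stimulated response element in the promoters of antiviral genes. Many epithelial cells hold a low constitutive level of such transcripts without added interferon.

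Levels are normalised read counts, that is, reads per gene divided by the authors' size factor of the library, and are given as mean ± SD over 2 libraries where an SD is shown. A fold change is the log2 of (value + 1) in the knockout minus that in the parental RNA-seq libraries, a scale that understates the change of low genes. A call is a limma adjusted p under 0.05 (Benjamini-Hochberg over 14561 genes, two-sided). The reads behind the table summed to 19038642 to 26955481 per library, of which 6267820 to 9063478 lay outside mitochondrial genes. The value of 1 read ran from 0.683 to 1.35 normalised counts. LARP1 itself read 633 and 770.3 in the parental and 356 and 284 in the knockout libraries (log2 fold change -1.13, limma adjusted p = 2.86e-09), so its mRNA was lower and still present. Where the edit lies in the gene is not stated. The median of all genes tested was -0.29, and centring each library on its median gene moved it to 0.02, a shift of -0.31, so each change below is also read against that shift. Each value is a level in the non-polysomal fraction, and fewer such mRNAs in the cell and fewer of them in this fraction cannot be told apart. Of 9 epithelial markers, 7 were measured. Their summed level was 13825 and 14483 in the parental and 10999.9 and 12766.5 in the knockout libraries. With the deposited scaling 3 of these 7 markers were called lower and 0 higher. Centred values gave 3 lower and 2 higher. The middle marker of the 7 moved by -0.11 log2 units, which centring turned to 0.20, so these markers did not all change in one direction. KRT8 and KRT18, both keratins of simple epithelia, read at least 3209 and 4533 in every RNA-seq library, while EPCAM, CDH1 and KRT19 fell; the call of CDH1 was lost without parental replicate 2 (limma adjusted p = 0.376) or either knockout library, replicate 1 (0.0968) or replicate 2 (0.26). Of 11 markers of blood, endothelial and fibroblast cells, 3 had values, with a summed level of 185 and 213 in the parental and 49.8 and 80.2 in the knockout libraries. CD68, a lysosomal glycoprotein of macrophages, fell from 191 and 173 to 10.7 and 13.7, and COL3A1, a fibrillar collagen chain, rose from 0 in both parental libraries to 31.3 and 23.2. The part of these markers in the results below was not tested.

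The promoters of 4 members hold the core of the interferon-stimulated response element. Those stretches are shown because BST2 and OAS3 were called lower while ISG15 and IFITM3 were not called. Whether the element acts in these cells was not tested. The core searched was GAAANNGAAA on both strands (TTTCNNTTTC on the other strand), in RefSeq windows of 250 bases before to 50 after the gene start (GRCh38.p14). It was in 3.57% of all 35116 windows. Of the members, 7 matched a window by symbol, and BST2, OAS3, ISG15 and IFITM3 each held 2 matches. STAT2, IRF9 and ADAR held none in these windows, which says only that these letters are not there. The RefSeq starts used here can differ from the GENCODE gene ends given below. The stretches of ISG15 and IFITM3 and the second of OAS3 therefore lie inside the GENCODE coordinates of these genes. The sequences run 5′ to 3′ on the gene's strand, and capitals mark the core; in BST2 and ISG15 both matches overlap.
BST2, 130 bases before the start, chr19:17405733-17405772, minus strand: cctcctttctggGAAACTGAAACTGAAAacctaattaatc
OAS3, 143 bases before the start, chr12:112938319-112938352, plus strand: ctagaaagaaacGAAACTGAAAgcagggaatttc
OAS3, 12 bases before the start, chr12:112938450-112938473, plus strand: agagccgggcggGAAAACGAAAcc
ISG15, 113 bases before the start, chr1:1013372-1013411, plus strand: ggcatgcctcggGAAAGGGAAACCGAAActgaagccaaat
IFITM3, 52 bases before the start, chr11:320874-320924, minus strand: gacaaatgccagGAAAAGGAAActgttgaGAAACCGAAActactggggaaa
Because LARP1 binds TOP mRNAs, the same windows were read for a start with C followed by at least 4 pyrimidines. None of the 7 members with a window had one at an annotated RefSeq start, against 4.07% of all windows; the start used in these cells can differ from the annotated one.

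Of the 8 members, BST2 and OAS3 were lower in the knockout fraction and the other 6 were not called in either direction. BST2, a membrane protein that tethers budding virions, had no read in either knockout library, and OAS3, which makes the 2-5A signal for RNase L, fell 2.72-fold. The transcription factors IRF3, STAT2 and IRF9, the ubiquitin-like protein ISG15, the membrane protein IFITM3 and the editing enzyme ADAR had parental means between 1.001 and 1.396 times the knockout mean. The 2 lower members are a share near the background, in which 25.1% of all genes tested were lower and 3.77% higher (28.8% in either direction). The same 2 members were lower after centring, where 16.2% of all genes were lower and 14.6% higher (30.8% in either direction). With edgeR on the recovered reads, which kept the deposited scaling, these 2 members were again called. There 24.9% of all genes were lower and 3.52% higher (28.4% in either direction). With the TSS libraries in place of the parental RNA-seq libraries these 2 were called too, against 21.5% lower and 6.36% higher (27.8% in either direction). The median log2 fold change of the 8 members was -0.33, beside -0.29 for all genes tested, and -0.02 after centring, beside 0.02. Both knockout libraries lay below both parental RNA-seq libraries for 6 members (BST2, OAS3, STAT2, IRF9, ISG15 and ADAR), an order that 50.4% of all genes tested had, and above them for 0 members, against 12.4%.

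**Figure D1:**
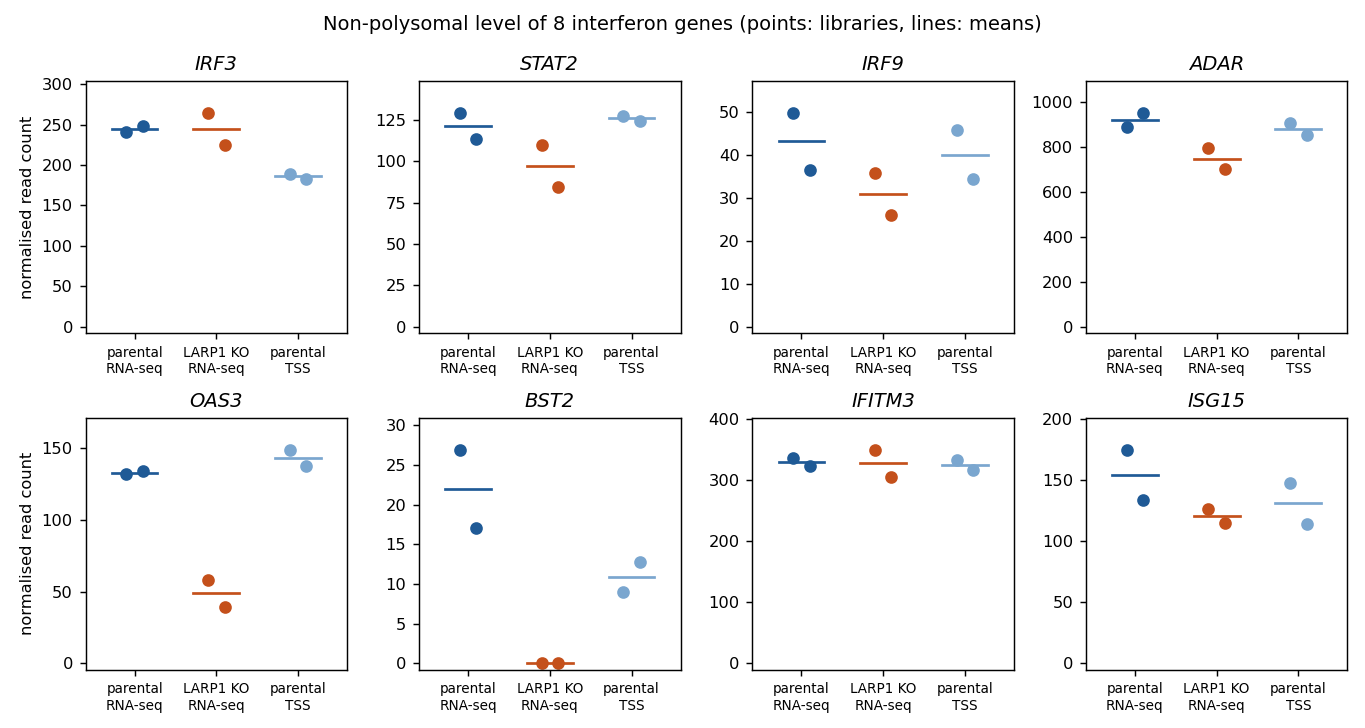
Normalised read count (y axis, from 0, its own scale in each panel) of the 8 genes in parental RNA-seq, LARP1 KO RNA-seq and parental TSS libraries (points; lines are means of 2 libraries). BST2 is at 0 in both knockout libraries and OAS3 lies at 58.1 and 39.6 against 132 and 134, while the IRF3 and IFITM3 points of both genotypes overlap.

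The transcription factors differed little between genotypes. IRF3 (ENSG00000126456.15) lies on chromosome 19, 49659569 to 49665875, minus strand; these and the other gene coordinates are from GENCODE 29 on GRCh38. It read 241 and 249 in the parental and 264 and 225 in the knockout libraries, so the groups overlapped. Its log2 fold change was -0.01 (95% interval -0.40 to 0.38, limma adjusted p = 0.986), and 0.30 after centring (limma adjusted p = 0.0649), so its sign depended on the scaling. BCL2L12 overlaps IRF3 on the other strand, with 69.2 ± 15.95 in parental and 56.5 ± 2.15 in knockout libraries, and the use of strand in counting is not given in the sources used here. The IRF3 value may therefore include reads of that gene.

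STAT2 (ENSG00000170581.13; chromosome 12, 56341597 to 56360155, minus strand), the STAT protein particular to type I and III interferon signalling, read 129 and 113 in the parental and 110.0 and 84.7 in the knockout libraries. The knockout libraries were the lower ones, by a gap of a few counts at the nearest points. Its log2 fold change was -0.32 (95% interval -0.79 to 0.14, limma adjusted p = 0.323), or -0.01 after centring (0.967). IRF9 (ENSG00000213928.8; chromosome 14, 24161053 to 24166565, plus strand), the DNA-binding subunit of ISGF3, read 49.8 and 36.6 in the parental and 35.9 and 25.9 in the knockout libraries. Its replicates differed as much as its groups, and its log2 fold change was -0.47 (95% interval -1.12 to 0.18, limma adjusted p = 0.298), or -0.16 after centring (0.723). A second protein-coding gene, ENSG00000259529.1, overlaps IRF9 on the same strand and read 30.6 ± 3.28 and 25.6 ± 10.2, so reads may be divided between both.

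BST2 (ENSG00000130303.12; chromosome 19, 17402939 to 17405648, minus strand), also called tetherin, read 26.9 and 17.1 in the parental libraries, from 20 and 14 reads, and 0 in both knockout libraries. A floor of 3 reads over the knockout group corresponds to 1.08 normalised counts, against 21.7 in the parental libraries pooled. That put BST2 at least 20.1-fold lower, a bound that takes the parental value as exact and leaves out its counting error. The fitted log2 fold change was -4.49 (SE 0.80, limma adjusted p = 2.89e-07), and -4.18 after centring (limma adjusted p = 2.27e-04). The parental TSS libraries, made from the same parental RNA, read 8.97 and 12.7, from 10 reads each. The transcript was thus detected in both parental RNA samples by both protocols and in 0 of 2 knockout libraries. The knockout had no TSS libraries. BISPR, a long non-coding RNA gene 38 bases from BST2, read 6.73 and 6.09 in the parental and 4.58 and 4.10 in the knockout libraries. It was still detected in both knockout libraries and was not called (log2 fold change -0.47, SE 0.70, limma adjusted p = 0.657). With so few reads and so wide an SE, the missing call cannot tell a change from none. On the other side, GTPBP3, a mitochondrial tRNA-modifying enzyme and the nearest gene with a value, was not called (log2 fold change 0.10, limma adjusted p = 0.75; 0.42 after centring, 0.0239).

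OAS3 (ENSG00000111331.12; chromosome 12, 112938352 to 112973249, plus strand) is an oligoadenylate synthetase that binds double-stranded RNA. It read 132 and 134 in the parental and 58.1 and 39.6 in the knockout libraries, and the groups lay far apart. Its log2 fold change was -1.45 (SE 0.26, 95% interval -1.96 to -0.95, limma adjusted p = 2.72e-07), or -1.14 after centring (limma adjusted p = 1.63e-04). The parental TSS libraries, at 149 and 137, both lay above the parental RNA-seq libraries. The OAS3 interval lay wholly below those of STAT2, IRF3, ISG15, IFITM3 and ADAR, and overlapped that of IRF9. Of its paralogs, OASL, which lacks synthetase activity, was measured at 16.2 and 18.3 in the parental and 6.88 and 7.51 in the knockout libraries without a call (log2 fold change -1.15, limma adjusted p = 0.0787). The nearest genes with values, PTPN11 and RASAL1, lie 428439 and 125570 bases away and were not called (log2 fold change -0.13 and -0.15).

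ISG15 and IFITM3 carry the same promoter core and were not called. ISG15 (ENSG00000187608.8; chromosome 1, 1001138 to 1014540, plus strand), which is attached to other proteins like ubiquitin, read 175 and 134 in the parental and 127 and 115 in the knockout libraries. The knockout libraries were the lower ones, but parental replicate 2 lay closer to both of them than to parental replicate 1. Its log2 fold change was -0.34 (95% interval -0.78 to 0.10, limma adjusted p = 0.26), or -0.03 after centring (0.913). Both flanking genes were called in opposite directions. HES4, a transcriptional repressor, lies 966 bases from the GENCODE start of ISG15, which is not the RefSeq start used for the promoter window. HES4 fell from 230 and 213 to 118 and 107 (log2 fold change -0.97, limma adjusted p = 7.26e-05), also without any 1 library. AGRN, the proteoglycan agrin, rose from 153 and 129 to 206 and 211 (0.56, limma adjusted p = 0.0321). The AGRN call was lost without any 1 of the 4 libraries (limma adjusted p = 0.109 to 0.426).

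IFITM3 (ENSG00000142089.15; chromosome 11, 319669 to 327537, minus strand), which hinders fusion of enveloped viruses in endosomes, read 335 and 323 in the parental and 349 and 305 in the knockout libraries. The groups overlapped, and the log2 fold change was -0.01 (95% interval -0.38 to 0.35, limma adjusted p = 0.968), or 0.30 after centring (0.0549), so its sign too depended on the scaling. An antisense gene that overlaps IFITM3 read 4.52 and 7.15 on average in parental and knockout libraries. Its neighbour and close paralog IFITM2 read 74.0 and 64.6 in the parental and 74.9 and 64.2 in the knockout libraries (log2 fold change 0.00, limma adjusted p = 0.994). IFITM1, the paralog found mainly at the cell surface, fell from 16.2 and 10.97 to 0.764 and 1.37, that is from 21 reads to 3, a ratio of 12.4 with an exact 95% counting interval of 3.71 to 65.0 (log2 fold change -2.81, limma adjusted p = 0.00126). That call was lost without knockout replicate 1 (limma adjusted p = 0.0508) or knockout replicate 2 (0.0572). The IFITM genes share long stretches of sequence, so reads may be divided among them and single values are uncertain. The window of IFITM1 also held the core, shown to set it beside that of IFITM3:
IFITM1, 40 bases before the start, chr11:313988-314021, plus strand: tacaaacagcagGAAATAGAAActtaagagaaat
IFITM1, 6 bases before the start, chr11:314022-314043, plus strand: acacacttctgaGAAACTGAAA

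ADAR (ENSG00000160710.15; chromosome 1, 154582057 to 154628013, minus strand) deaminates adenosine to inosine in double-stranded RNA, has an interferon-inducible long isoform, and was the member with the most reads. It read 886 and 949 in the parental and 794 and 699.9 in the knockout libraries, so both knockout libraries were lower. Its log2 fold change was -0.30 (SE 0.16, 95% interval -0.62 to 0.02, limma adjusted p = 0.164), the size of the shift of the median gene, and 0.01 after centring (0.933). Gene-level values do not separate its isoforms.

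**Figure D2:**
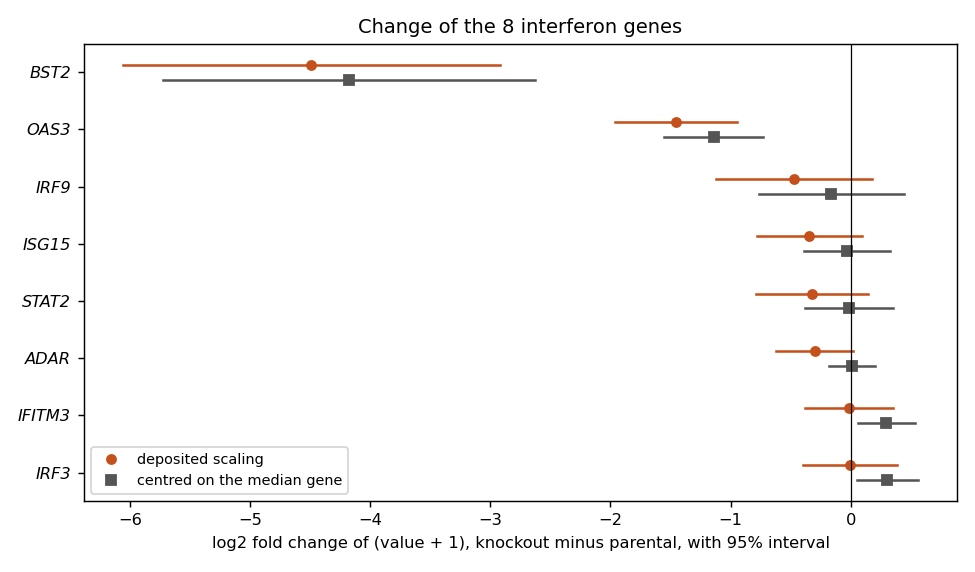
Log2 fold change of (value + 1), knockout minus parental (x axis), with its 95% interval for each of the 8 genes, with the deposited scaling (circles) and after centring on the median gene (squares). The intervals of BST2 and OAS3 lie below 0 under both; those of IRF9, ISG15, STAT2 and ADAR span 0 under both. IFITM3 and IRF3 move from -0.01 to 0.30 with centring, where their unadjusted intervals lie above 0 though neither passes the adjusted threshold.

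Per kilobase of annotated exon sequence, IFITM3 had the highest parental level of the members, at 244 ± 6.40 normalised counts per kilobase (n = 2), followed by ISG15 at 164 ± 30.8, ADAR at 94.7 ± 4.65 and IRF3 at 64.5 ± 1.43. STAT2 (19.9 ± 1.84), BST2 (19.7 ± 6.23), OAS3 (16.1 ± 0.184) and IRF9 (11.4 ± 2.47) formed a lower group, in which the BST2 libraries overlapped those of STAT2 and OAS3. In the knockout libraries the first 5 places of that order were unchanged, while OAS3 (5.92 ± 1.58) and BST2 (0) took the last places, below IRF9 (8.15 ± 1.86), whose libraries overlapped those of OAS3. Exon length merges all annotated isoforms, so a gene with unused long isoforms reads low on this scale. In the TSS libraries, made from the same parental RNA, IRF3 read 189 and 183 and BST2 8.97 and 12.7, all below the parental RNA-seq values, and the difference was not tested; the TSS values of ISG15, IFITM3, IRF9 and ADAR overlapped the parental RNA-seq values, and those of STAT2 lay within them.

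In the authors' deposited table, whose fold changes are parental over knockout, BST2 (6.93, SE 1.56, adjusted p = 7.95e-05) and OAS3 (1.51, SE 0.24, adjusted p = 2.53e-09 in the authors' deposited table) were also the members past 0.05. The next smallest value among the members in the authors' deposited table was an adjusted p of 0.0641 for ADAR (log2 fold change 0.27). Whether the TSS libraries entered the authors' comparison is not stated in the sources used here, so its samples may differ from those of the limma test. For IRF3 the authors' value was -0.18, parental over knockout. Knockout minus parental, the RNA-seq fit gave -0.01 for IRF3, and the fit on RNA-seq and TSS averaged gave 0.19. The same fits gave -1.45 and -1.50 for OAS3, and -0.34 and -0.23 for ISG15 (authors' value 0.24). They gave -0.30 and -0.27 for ADAR, and -0.32 and -0.35 for STAT2 (authors' value 0.35). In size, the authors' values of these genes lay nearer to the averaged fit. BST2 is left out, since the scale used here understates low genes. Which samples the authors used was not tested.

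The genes most like BST2 over the 6 libraries, by the root mean square difference of log2(value + 1) after subtracting each gene's mean, among 2263 genes within a factor of 2 of its level, were RP11-103J17.2 (0.30), HLA-DRA (0.33) and RP11-723O4.6 (0.41). HLA-DRA, the alpha chain of the class II antigen-presenting molecule HLA-DR, read 20.2 and 23.2 in the parental RNA-seq, 14.4 and 12.7 in the TSS and 0 in both knockout libraries. RP11-103J17.2, a processed transcript, was at 0 in both knockout libraries and read 43.1 and 25.6 in the parental RNA-seq libraries. The knockout libraries entered the search, so values at or near 0 in them followed from how these genes were chosen.

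Beside the members, 150 further genes of the interferon system were listed by role, of which 116 had values and were tested. Of these, 43 (37.1%) fell and 1 rose, beside 25.1% of all genes tested lower and 3.77% higher, so lower calls outnumbered higher ones over all genes too. The median log2 fold change was -0.40 in the lists and -0.29 over all genes tested. With centred values 38 of the 116 were lower and 12 higher, beside 16.2% and 14.6% of all genes, and the median was -0.09, beside 0.02. Centring thus changed the lower calls in the lists little, from 43 to 38, and the higher calls more, from 1 to 12. The count of called genes fell from 44 to 16 without knockout replicate 2 and to 27 without parental replicate 2, and was 21 with DESeq2. Among the genes described below, DESeq2 did not call IFNAR1, IFNAR2, IRF1, IFIH1, UBE2L6, HERC6, ADARB1, DHX9 or STAU1 (adjusted p = 0.0534 to 0.479), nor IFITM1 above. No value was analysed here for any of the 8 interferon genes listed.

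**Figure D3:**
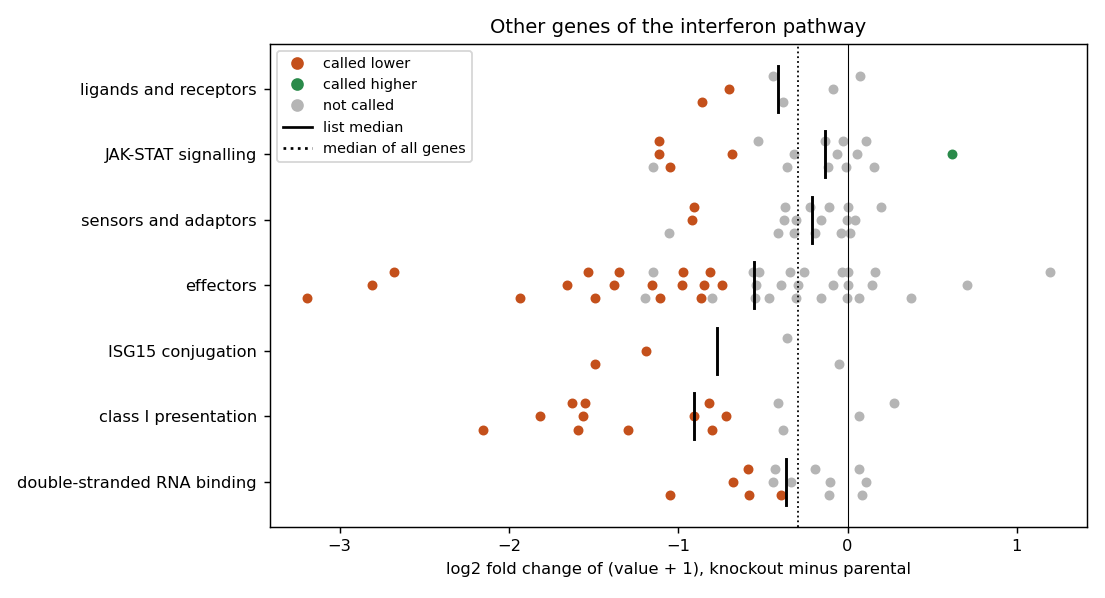
Log2 fold change of (value + 1), knockout minus parental (x axis), of the 116 other interferon-pathway genes by role (rows; each point a gene, bars the list medians, the dotted line the median of all genes tested). Of the 43 called lower genes, 17 are effectors and 11 class I presentation genes, and SOCS3 is the point called higher.

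Of 6 receptor chains, 2 (33.3%) fell and 0 rose, beside 25.1% of all genes lower, with a median log2 fold change of -0.41, or -0.10 after centring. The count was 1 after centring or without knockout replicate 1, and 0 with DESeq2 and without parental replicate 2 or knockout replicate 2. These were the chains of the type I interferon receptor: IFNAR1 read 277 and 325 in the parental and 196 and 174 in the knockout libraries, a log2 fold change of -0.70 (SE 0.20, limma adjusted p = 0.00296), and IFNAR2 57.9 and 108.5 against 42.8 and 43.7 (-0.86, SE 0.28, limma adjusted p = 0.0113). Neither call was stable: IFNAR1 was lost without parental replicate 2 (limma adjusted p = 0.233) or knockout replicate 2 (0.108), and IFNAR2 without parental replicate 2 (0.585) or either knockout library, replicate 1 (0.22) or replicate 2 (0.287) and after centring (0.117).

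Of 17 JAK-STAT genes, 4 (23.5%) fell and 1 rose, with a median of -0.13, or 0.18 after centring, so the share that fell was close to the 25.1% of all genes. The 5 calls became 2 without knockout replicate 1, and 3 without knockout replicate 2 or with DESeq2. PTPN2, a tyrosine phosphatase that acts on JAK1, fell 2.15-fold (log2 fold change -1.11, SE 0.18, limma adjusted p = 9.72e-09), and IRF2BP2, a corepressor partner of IRF2, fell 2.15-fold as well (-1.11, limma adjusted p = 5.40e-08). IRF1, a transcription factor induced by interferon gamma, fell from 99.6 and 105 to 42.8 and 56.0 (-1.05, limma adjusted p = 6.81e-04), which was not called without knockout replicate 1 (0.0658). SOCS3, an inhibitor of cytokine receptor signalling, rose from 241 and 218 to 366 and 338 (0.61, limma adjusted p = 0.00747), a call lost without any 1 of the 4 libraries (limma adjusted p = 0.0708 to 0.253). The kinases JAK1 and TYK2 had log2 fold changes of -0.06 and -0.01 and were not called.

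Of 18 sensors and adaptors upstream of IRF3, 2 (11.1%) fell and 0 rose, a smaller share than the 25.1% of all genes (median -0.21, or 0.10 after centring). The count was 1 with DESeq2, and 1 when parental replicate 2 or either knockout library was left out. TRIM25, a ubiquitin ligase that acts with the sensor RIG-I, fell 1.87-fold from 463 and 499.7 to 282 and 233 (log2 fold change -0.91, limma adjusted p = 1.16e-05). IFIH1, the double-stranded RNA sensor MDA5, fell from 33.7 and 50.0 to 27.5 and 16.4 (-0.92, limma adjusted p = 0.0368). The call was lost after centring (0.162) and without parental replicate 2 (0.408) or either knockout library, replicate 1 (0.0924) or replicate 2 (0.447). MAVS and TBK1, the adaptor and the kinase that lead to IRF3, were not called with the deposited scaling (0.00 and 0.20) and were higher after centring (0.31 and 0.51).

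Of 42 effectors of the interferon response, 17 (40.5%) fell and 0 rose, beside 25.1% of all genes lower. The median was -0.55, or -0.24 after centring, where 16 were lower and 4 higher. With the deposited scaling the log2 fold changes of the effectors ran from -3.19 to 1.20. Both knockout libraries lay below both parental ones for 28 effectors and above them for 3, beside 50.4% and 12.4% of all genes tested. The count of 17 dropped to 3 without knockout replicate 2 and to 7 with DESeq2. PLSCR1, a phospholipid scramblase, fell 2.62-fold from 263 and 233 to 102 and 87.4 (log2 fold change -1.38, SE 0.22, limma adjusted p = 5.27e-09). PARP12, a zinc finger ADP-ribosyltransferase, fell 2.98-fold from 106 and 80.4 to 31.3 and 31.4 (-1.53, limma adjusted p = 1.67e-06). IFI6, a mitochondrial and endoplasmic reticulum protein, fell 7.99-fold from 18.8 and 34.1 to 4.58 and 2.05 (-2.68, limma adjusted p = 1.44e-05), and NMI, a partner of STAT proteins, fell 4.14-fold from 33.7 and 41.4 to 9.93 and 8.19 (-1.94, limma adjusted p = 4.64e-05). Both calls were lost without knockout replicate 2 (limma adjusted p = 0.0782 for IFI6 and 0.0599 for NMI). IFIT1, which binds mRNA caps that lack 2′-O-methylation, was among the effectors that went the other way without a call. It read 36.3 and 43.9 in the parental and 77.9 and 55.3 in the knockout libraries (0.70, limma adjusted p = 0.0567). After centring it was higher (1.01, limma adjusted p = 0.00277). Of 4 enzymes of ISG15 conjugation, 2 fell and 0 rose, beside 25.1% of all genes lower, and the count was 1 after centring or without knockout replicate 1 and 0 without knockout replicate 2 or with DESeq2. UBE2L6, the E2 enzyme that carries ISG15, fell 2.32-fold (-1.19, limma adjusted p = 2.03e-04), which was not called without knockout replicate 2 (0.0649). HERC6, a HECT-domain protein of the same family as the human ISG15 ligase HERC5, fell from 21.5 and 20.7 to 7.64 and 6.15 (-1.49, limma adjusted p = 0.0131), a call lost after centring (0.0519) and without knockout replicate 1 (0.0728) or knockout replicate 2 (0.154). With the TSS libraries as the parental group HERC6 stood at -0.40 (limma adjusted p = 0.651), and with DESeq2 its adjusted p was 0.268. HERC5 itself was not called (-0.05).

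Of 15 class I presentation genes, 11 (73.3%) fell and 0 rose with the deposited scaling, beside 25.1% of all genes lower, and 11 were lower and 2 higher after centring, beside 16.2% and 14.6%. The count was 7 without parental replicate 2. Both knockout libraries lay below both parental ones for 13 of the 15 genes and above them for 1. Their median change was -0.91 on the log2 scale, and -0.60 once centred. HLA-E, a non-classical class I heavy chain, read 595 and 614 in the parental and 192 and 152 in the knockout libraries, 3.51-fold lower (log2 fold change -1.81, SE 0.19, limma adjusted p = 2.34e-20). PSME1, a subunit of the proteasome activator PA28, fell 3.04-fold from 405 and 366 to 125 and 129 (-1.59, SE 0.20, limma adjusted p = 8.92e-14). TAP1, a subunit of the peptide transporter of the endoplasmic reticulum, fell 2.96-fold from 182 and 184 to 64.2 and 59.4 (-1.55, SE 0.24, limma adjusted p = 1.71e-09), and HLA-F, another non-classical heavy chain, fell 4.65-fold from 71.3 and 67.0 to 16.8 and 12.97 (-2.15, SE 0.34, limma adjusted p = 7.17e-09). In each of these 4 genes the groups lay apart, and each was also called without any 1 library and after centring. HLA genes are polymorphic and alike in sequence, so their single values are uncertain.

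**Figure D4:**
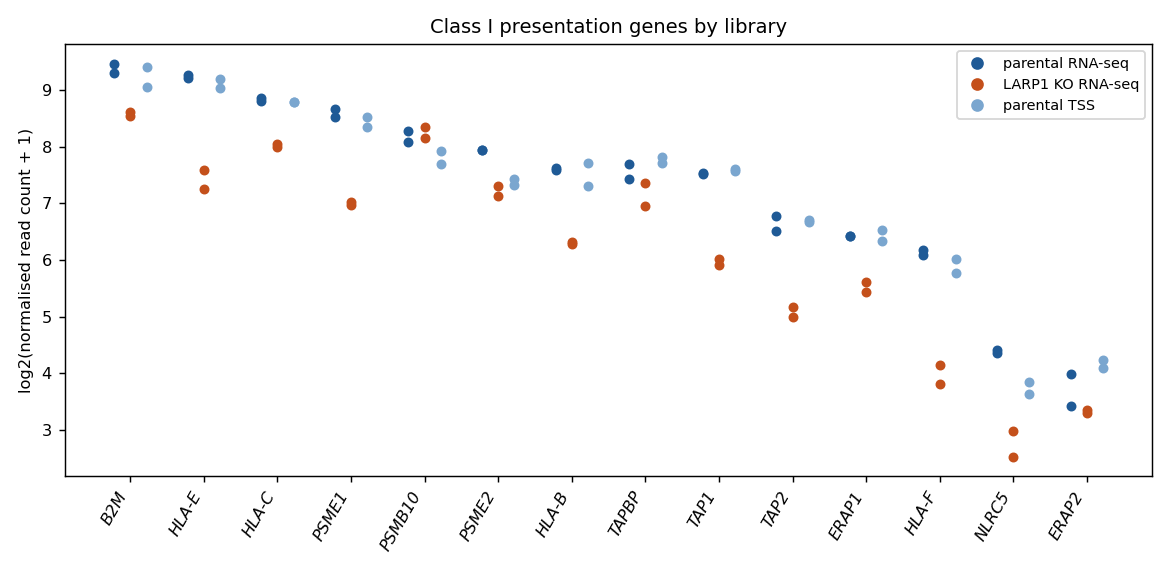
Log2(normalised read count + 1) (y axis) of 14 class I presentation genes (x axis, by falling parental mean) in each library (points). The knockout points lie below both parental RNA-seq points for 13 genes and overlap them for PSMB10; the remaining gene of the list, for which they lie above, is not shown.

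Of 14 further proteins that bind or edit double-stranded RNA, 5 (35.7%) fell and 0 rose, beside 25.1% of all genes lower (median -0.36, or -0.05 after centring, where 4 were lower and 2 higher). The count was 2 without parental replicate 1, and 1 with DESeq2 and without parental replicate 2 or knockout replicate 2. ADARB1, the second catalytic editing enzyme beside ADAR, fell 2.07-fold from 139 and 130.4 to 74.9 and 55.3 (log2 fold change -1.05, limma adjusted p = 1.90e-04), which was not called without knockout replicate 2 (0.0818). ILF2, a nuclear RNA-binding protein, fell from 1097 and 1101 to 740.2 and 638 (-0.68, limma adjusted p = 2.69e-04), a call lost without parental replicate 1 (0.0732) or parental replicate 2 (0.0892). The helicase DHX9 (-0.58, limma adjusted p = 0.00276) and the transport protein STAU1 (-0.59, limma adjusted p = 0.00292) fell by more than the shift of the median gene. Both calls were lost without parental replicate 1 (0.0852 for DHX9 and 0.0606 for STAU1), parental replicate 2 (0.262 and 0.33) or knockout replicate 2 (0.115 and 0.137). EIF2AK2, the interferon-inducible kinase PKR that double-stranded RNA activates, was not called, at 339 and 353 in the parental and 318 and 219 in the knockout libraries (-0.39, limma adjusted p = 0.111).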

How the data were processed

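Non-polysomal fractions of 10% to 50% sucrose gradients were pooled and given ERCC spike-in RNAs before RNA-seq, per the labels' protocols. The submitters' processing notes name STAR 2.6, RSEM, SAMtools, DESeq2 and GRCh38. The sources used here give neither strand use, annotation release nor the basis of the scaling. The authors deposited 6 columns of signal, in which each library's reads per gene carry a single scale factor, and, per the file headers, their own comparison as log2 fold changes with standard errors and adjusted p-values. Of the deposited values, 100% were whole multiples of 1 read within 0.001 reads, so reads could be recovered.

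Because the values were already scaled, the test was limma-trend (version 3.58.1 in R 4.3.3) on log2(value + 1), by genotype alone, keeping genes that reached 1 in 2 or more of the 4 RNA-seq libraries. Its prior degrees of freedom came out infinite, which means that the spread is that of the trend at a gene's level. An exact permutation test of 2 against 2 cannot go below p = 0.333. edgeR 4.0.16 and DESeq2 1.42.0 on the recovered reads were alternatives, with those of the closing section, and the fit was tested on simulated data. The edgeR fit kept the deposited scale factors, while DESeq2 estimated its own. edgeR called 4131 genes and 2 members.

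The members and lists were chosen with earlier results of these data known. Named genes were the 8 members, their neighbours and paralogs, LARP1, the genes most like the member that fell most, and per list the called genes with the 4 smallest adjusted p in each direction. PSMB10, IFIT1, HERC5, JAK1, TYK2, MAVS, TBK1, EIF2AK2, the named marker genes and the sequences shown were chosen after their values were seen. Some listed genes count in their lists and are not reported here by name. Without version, 14535 identifiers matched GENCODE 29; 6 of 8 members matched with version. The counting interval of the IFITM1 ratio and the floor of BST2 cover counting error only, and reads are not molecules. The intervals of the fold changes come from the limma fit and use its spread between libraries.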

Additional observations from a re-analysis of the deposited data

How the results depend on the processing

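BST2 and OAS3 were called lower under every alternative in which they were tested (15 for BST2 and 16 for OAS3), and the other 6 members under none. With a minimum of 5 in every library BST2 could not enter, leaving 1 called member. BST2 ranged from -7.75 (pseudocount 0.1) to -2.41 (pseudocount 5), since its knockout value is 0, and OAS3 from -1.72 to -1.14. The sign of members near 0 turned without a call: IRF3 gave 0.30 after centring, 0.29 with TMM factors, 0.30 with DESeq2, 0.39 with the TSS libraries as parental and 0.19 with RNA-seq and TSS averaged, and -0.12 to 0.11 when 1 library was left out, where 0.02 (without parental replicate 2) and 0.11 (without knockout replicate 2) had turned. IFITM3 gave 0.30 after centring, 0.28 with TMM factors, 0.29 with DESeq2 and 0.0061 with the TSS libraries, and -0.11 to 0.09 when 1 library was left out, with 0.01 without parental replicate 1 and 0.085 without knockout replicate 2. ADAR gave 0.013 after centring and 0.0057 with DESeq2. Of all genes, 4198 were called, against 2244 without a trend over level, 2540 with DESeq2 and 1367 to 2769 without 1 library (2769 and 2214 without parental replicate 1 and 2, 2532 and 1367 without knockout replicate 1 and 2). Of the other pathway genes, 44 were called, against 21 with DESeq2 and 16 to 35 without 1 library, again lowest without knockout replicate 2 and 27 without parental replicate 2. A library left out leaves 1 in its group, which is assumed to vary like the others. With the replicate number as a block, 3159 genes, 2 members and 41 pathway genes were called; same-numbered libraries did not deviate together (r = -0.06 over 9859 genes), so the numbers give no pairing. At 0 reads in the knockout, depth allows BST2 a level of up to 1.08.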
